A study of Macaca mulatta with 10 samples.

Results

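The genes described here encode the proteins with which mitochondria respire and the proteins of the ribosome that mitochondria use for their own translation. They were chosen by symbol alone: every gene whose annotated symbol begins with NDUF, SDH, UQCR, COX followed by a digit, ATP5, MRPL or MRPS. The rule found 137 of the 13191 genes measured, of which 75 belong to the respiratory chain, its ATP synthase and their assembly factors, and 62 to the mitochondrial ribosome (mitoribosome). By symbol, 40 of the mitoribosome genes are MRPL (large subunit) and 22 are MRPS (small subunit), although MRPS30 and MRPS18A are now placed in the large subunit. The symbols do not cover everything: 47 of the 183 protein-coding rhesus genes in the RefSeq table that fit the rule were not analysed here.

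The RNA came from ORMES6, a line of rhesus macaque embryonic stem (ES) cells, and was hybridised to Affymetrix rhesus arrays, with 2 arrays in each of 5 groups. The control, the ES group, was ORMES6 itself, grown on mouse embryonic fibroblast feeders with bFGF and serum replacement. The other groups were ES cells differentiated towards liver through co-culture with hESdF, fibroblast-like cells derived from human ES cells, and sampled as the whole culture at differentiation stage 2 (IVDS2), as the central foci (IVDS2-C) or the peripheral area (IVDS2-P) of stage 2 colonies, or at stage 3 (IVDS3). All 5 groups are 1 cell line with no genetic change, and the treatment field names the co-culture on every sample, ES included. The labels give no days for the stages, do not say whether feeder or co-culture cells were removed before RNA isolation, and leave unsaid whether a group's 2 arrays stand for separate cultures. The p-values therefore measure the spread between these arrays, which may be technical. In these bulk samples, fewer cells of a type and less RNA per cell cannot be told apart.

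Electrons from NADH enter the respiratory chain at complex I (NDUF genes) and those from succinate at complex II (SDH genes), which is also an enzyme of the tricarboxylic acid cycle. They pass through complex III (UQCR genes) to complex IV (COX genes), where oxygen is reduced, and the proton gradient built on the way drives the ATP synthase, complex V (ATP5 genes). A small core of these complexes is encoded in mitochondrial DNA and made by the mitoribosome, whose own proteins are all nuclear products, so both gene classes meet in the same complexes; pluripotent stem cells are known for leaning on glycolysis more than most differentiated cells do.

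Each value is a log2 expression value relative to the median of the same probe set over the 10 arrays, as deposited. A value of 0 is thus the middle of these 10 arrays and not an absence of RNA, and no gene's level can be set against another gene's. A difference between groups is on the log2 scale, first group minus second, with the standard error (SE) of the limma model and n = 2 arrays per group. Genes with an adjusted p under 0.05 (Benjamini-Hochberg, all 13191 genes together) were called higher or lower. All comparisons with ES rest on the same 2 ES arrays. A fit that leaves out an array of a compared group keeps a single array there, so its SE is larger. A call lost in such a fit therefore need not mean a smaller difference.

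The repeats of ES differed most from each other, with an SD over all genes of 0.369 for replicate 2 minus replicate 1, against 0.215 to 0.295 in the other groups. The median of this difference over the mitoribosome genes was -0.15 in ES and 0.103 in IVDS3, against 0.031 and -0.011 over all genes. At stage 2 the mitoribosome median was -0.079 in IVDS2-C, -0.012 in IVDS2 and -0.007 in IVDS2-P. Of 9 pluripotency markers measured, 7 were lower in IVDS3 than in ES, 5 in IVDS2-C, 4 in IVDS2 and 1 in IVDS2-P, led by POU5F1 at -7.60 in IVDS3. NANOG ran the other way, 1.48 higher in IVDS3. All 5 stratified epithelium markers measured were higher in IVDS3 than in ES (KRT4 by 8.57), 3 were in IVDS2-C, and 1 each was in IVDS2 and IVDS2-P. Of 8 fibroblast markers, 5 were higher in IVDS3 (LUM by 5.48, DCN by 4.57) and 2 lower, and in IVDS2-C 4 were higher and 2 lower. None of the 5 liver markers measured was called higher than in ES in any group (limma, and none at an unadjusted p under 0.05 in IVDS3 or IVDS2-C), and 3 were lower in IVDS3 (APOA1 at -1.84). Their median per array in IVDS3 was 5.93 and 5.66 for the epithelial list, 0.82 and 0.53 for the fibroblast list and -2.49 and -2.58 for the pluripotency list. Against ES, 28.6% of all genes were called lower and 21.1% higher in IVDS3, and 16.5% and 13.7% in IVDS2-C. The shares were 6.23% and 6.5% in IVDS2, and 4.67% and 6.31% in IVDS2-P. These markers moved with the same groups as the genes below, and the part of the markers in the results was not tested.

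By their class median, the mitoribosome genes stood highest in ES and lowest in IVDS3. Their median over the 62 genes was 0.386 and 0.267 on the ES arrays, 0.041 and 0.051 in IVDS2-P, 0.018 and 0.025 in IVDS2, -0.11 and -0.161 in IVDS2-C and -0.303 and -0.165 in IVDS3. No array of one of the 3 levels, ES, the IVDS2 and IVDS2-P arrays together, and the IVDS2-C and IVDS3 arrays together, overlapped another. The IVDS2 and IVDS2-P arrays were nearly level, and the higher IVDS3 array matched the lower IVDS2-C array closely. The respiratory chain moved far less: its median was 0.13 and 0.084 in ES, 0.064 and 0.026 in IVDS2-P, -0.01 and -0.064 in IVDS2, -0.015 and -0.078 in IVDS2-C and -0.062 and -0.069 in IVDS3. ES held the highest group mean of 46 of the 62 mitoribosome genes (74.2%), of 36 of the 75 respiratory genes (48%) and of 37.3% of all genes. IVDS3 held the highest group mean of 5 mitoribosome genes (8.06%) and of 17 respiratory genes (22.7%), against 25.6% of all genes. The lowest group mean was in IVDS3 for 34 mitoribosome genes (54.8%), 33 respiratory genes (44%) and 39.1% of all genes. Genes both highest in ES and lowest in IVDS3 were 26 mitoribosome genes (41.9%), 20 respiratory genes (26.7%) and 21.2% of all genes.

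**Figure D1:**
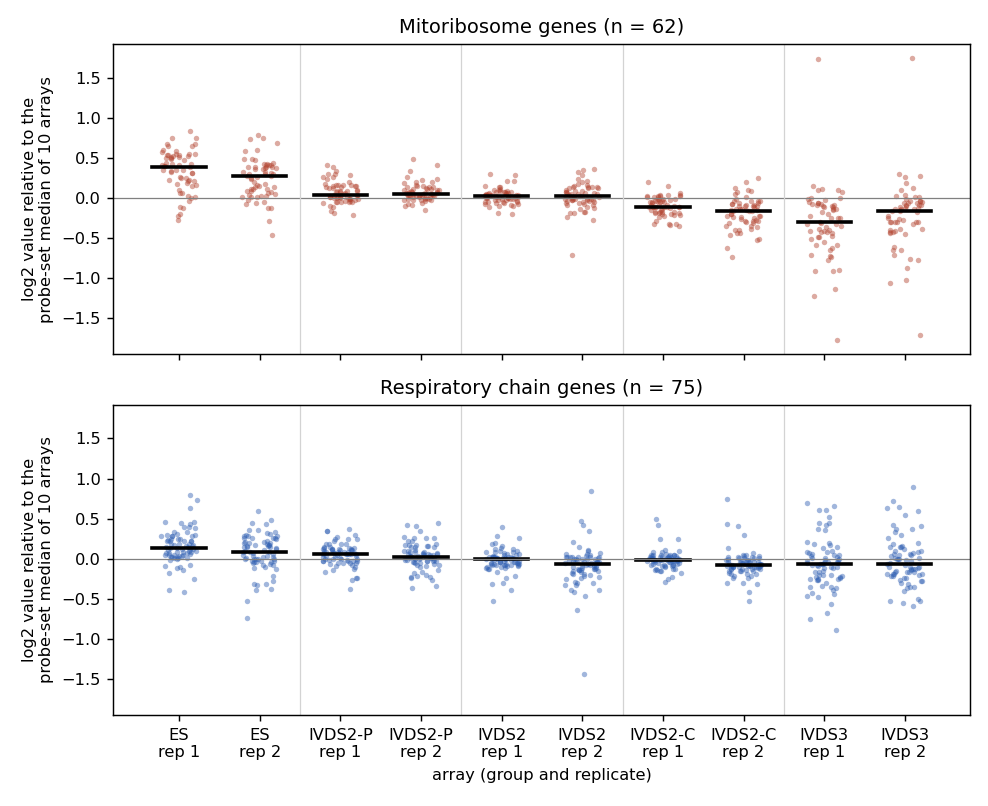
Log2 value relative to the probe-set median of 10 arrays (y axis) for each member (points) on each array (x axis, group and replicate), with mitoribosome genes above and respiratory chain genes below; the bar is the median of the class on that array. The mitoribosome median runs from 0.386 on the first ES array to -0.303 on the first IVDS3 array, while the respiratory median stays between 0.13 and -0.078.

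Stage 3 cells were compared with ES cells first, the widest step of the study. Of the 62 mitoribosome genes, 44 fell (71%) and 1 rose (1.61%), where 28.6% of all genes were called lower and 21.1% higher. The median difference was -0.55, against -0.135 over all genes. Of the 40 large-subunit genes 31 fell and 1 rose, and of the 22 small-subunit genes 13 fell and none rose (limma, none at an unadjusted p under 0.05). With single arrays left out, between 34 and 46 mitoribosome genes were called lower.

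MRPL44, a large-subunit protein with a ribonuclease III fold, read 0.18 and -0.025 in ES, 0.29 and 0.36 in IVDS2, 0.30 and 0.41 in IVDS2-P, -0.17 and -0.74 in IVDS2-C, and -1.78 and -1.72 in IVDS3. Both IVDS3 arrays lay far below all the others. The IVDS3 value was 3.54-fold lower than in ES (-1.83 ± 0.17 SE, adjusted p = 4.29e-05), and the 4 probe sets of the gene gave differences from -0.50 to -3.23. MRPS9, a small-subunit protein, read 0.57 and 0.36 in ES, 0.04 and -0.04 in IVDS2, 0.26 and 0.27 in IVDS2-P, -0.17 and -0.51 in IVDS2-C, and -1.22 and -1.02 in IVDS3. Its 5 groups did not overlap, and it fell 3.00-fold from ES to IVDS3 (-1.59 ± 0.14 SE, adjusted p = 3.162e-05). MRPL11, at the base of the stalk where translation factors dock, read 0.49 and 0.38 in ES, 0.07 and -0.03 in IVDS2, 0.13 and 0.03 in IVDS2-P, -0.225 and -0.53 in IVDS2-C, and -1.14 and -1.06 in IVDS3. Only its IVDS2 and IVDS2-P arrays overlapped, and it fell 2.90-fold (-1.54 ± 0.13 SE, adjusted p = 2.124e-05). MRPS27, a small-subunit protein with RNA-binding repeats, fell by 1.37 ± 0.14 SE (adjusted p = 6.103e-05). MRPL12, a stalk protein that also binds the mitochondrial RNA polymerase, fell by 1.12 ± 0.12 SE (adjusted p = 7.89e-05). MRPS34 fell by 0.82 ± 0.12 SE (adjusted p = 0.00041), and MRPS12, which sits at the decoding centre, by 0.64 ± 0.12 SE (adjusted p = 0.00183). These 7 falls kept their call under every alternative in which the gene was measured.

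MRPL58 was the only mitoribosome gene called higher in the main fit. It is a peptidyl-tRNA hydrolase, a release factor relative built into the large subunit that frees stalled chains. It read -0.23 and 0.29 in ES, -0.20 and -0.72 in IVDS2, -0.03 and -0.08 in IVDS2-P, 0.03 and 0.095 in IVDS2-C, and 1.73 and 1.74 in IVDS3. The arrays of the first 4 groups spread from -0.72 to 0.29, and both IVDS3 arrays stood above them all, 3.26-fold above ES (1.71 ± 0.20 SE, adjusted p = 0.0001275). The gene has 1 probe set, so no second probe set bears on the rise.

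**Figure D2:**
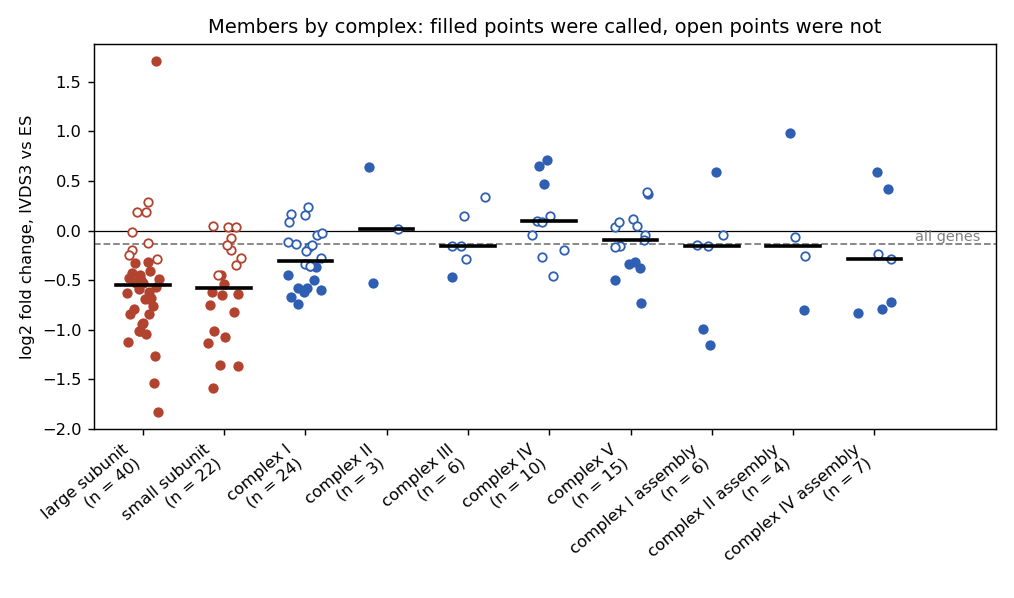
Log2 fold change of IVDS3 against ES (y axis) for each member, by complex or subunit (x axis, with the number of genes); filled points were called at adjusted p under 0.05, open points were not, bars are medians and the dashed line is the median of all genes. The large and small mitoribosome subunits have medians of -0.549 and -0.58, with MRPL58 alone far above 0, while complex IV has a median of 0.097.

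Among respiratory chain genes, IVDS3 differed from ES in both directions. Of 75 genes 23 fell (30.7%) and 9 rose (12%), close to the 28.6% of all genes called lower and below the 21.1% called higher, with a median difference of -0.15 against -0.135 over all genes. Without IVDS3 replicate 2, 16 fell and 4 rose. The complexes differed in their counts, and no test compared one complex with another. Their counts below stand beside the same shares of all genes, and the lower share of complex V, 33.3%, was near the 28.6% of all genes. Names given because a count held 5 or fewer genes were picked after their values were seen.

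Complex I had 10 of 24 subunits lower and none higher (limma, none at an unadjusted p under 0.05), with a median of -0.31 and 7 to 11 lower with single arrays left out. NDUFV1, the subunit that binds NADH, read 0.12 and 0.34 in ES and -0.15 and -0.13 in IVDS3, without overlap, and fell by 0.37 ± 0.12 SE (adjusted p = 0.03037). That call was lost without ES replicate 2, without either IVDS3 array, with arrays centred on their median and in the fit of these 4 arrays alone, with adjusted p up to 0.1337. NDUFS1, the large iron-sulfur subunit, differed by -0.14 ± 0.14 SE (adjusted p = 0.445). Of the 6 assembly factors of complex I, 2 fell and 1 rose, with a median of -0.15. NDUFAF2, a chaperone of late assembly, read 0.63 and 0.59 in ES, -0.001 and -0.09 in IVDS2, 0.37 and 0.45 in IVDS2-P, 0.001 and -0.09 in IVDS2-C, and -0.36 and -0.41 in IVDS3. Its ES, IVDS2-P and IVDS3 arrays formed 3 separate levels, with IVDS2 and IVDS2-C overlapping between them, and the fall from ES to IVDS3 was 1.00 ± 0.10 SE (adjusted p = 6.114e-05). NDUFAF6, a factor of early assembly, fell by 1.16 ± 0.26 SE (adjusted p = 0.005765), on ES arrays that differed from each other (0.80 and 0.11), and its adjusted p was 0.05061 without IVDS3 replicate 1. NDUFAF3, another early factor, rose by 0.60 ± 0.17 SE (adjusted p = 0.0147), a call lost without either IVDS3 array.

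Complex II split by subunit. SDHA, the flavoprotein that oxidises succinate, read -0.005 and 0.08 in ES, -0.22 and -0.39 in IVDS2, -0.03 and -0.17 in IVDS2-P, 0.005 and 0.02 in IVDS2-C, and 0.65 and 0.71 in IVDS3. Both IVDS3 arrays were above all the others, 1.57-fold above ES (0.65 ± 0.11 SE, adjusted p = 0.001186). SDHB, the iron-sulfur subunit, read 0.39 and 0.36 in ES, -0.08 and -0.31 in IVDS2, 0.08 and -0.08 in IVDS2-P, -0.13 and -0.11 in IVDS2-C, and 0.45 and 0.34 in IVDS3. ES and IVDS3 overlapped at the top and differed by 0.02 ± 0.12 SE (adjusted p = 0.8956), and all the stage 2 arrays lay below both. SDHC, a membrane anchor, read 0.43 and 0.26 in ES and -0.12 and -0.245 in IVDS3, and fell by 0.53 ± 0.13 SE (adjusted p = 0.007818), or adjusted p = 0.05773 without IVDS3 replicate 2. SDHD, the other anchor, was not analysed here. Of the 4 assembly factors, SDHAF4, which binds SDHA once its flavin is attached, rose by 0.98 ± 0.27 SE (adjusted p = 0.01387). SDHAF4 read -0.41 and -0.045 in ES and 0.61 and 0.90 in IVDS3, and leaving out ES replicate 1 or IVDS3 replicate 2 ended the call, with adjusted p up to 0.08889. SDHAF3, which serves the iron-sulfur subunit, fell by 0.81 ± 0.14 SE (adjusted p = 0.00125).

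In complex III 1 of 6 genes fell. This was UQCRFS1, the Rieske iron-sulfur protein, by 0.47 ± 0.12 SE (adjusted p = 0.01072), or adjusted p = 0.06364 without IVDS3 replicate 2, while the core protein UQCRC1 differed by -0.28 ± 0.11 SE (adjusted p = 0.0507). In complex IV, where NDUFA4 and NDUFA4L2 are counted with the COX subunits, 3 of 10 genes rose and none fell (limma, 1 lower at an unadjusted p under 0.05). COX7A1, the muscle-type isoform of subunit VIIa, read -0.09 and -0.31 in ES, -0.05 and -0.05 in IVDS2, -0.16 and 0.05 in IVDS2-P, 0.42 and 0.74 in IVDS2-C, and 0.36 and 0.545 in IVDS3. The IVDS2-C and IVDS3 arrays overlapped each other and lay above the remaining 6, and the rise from ES to IVDS3 was 0.65 ± 0.15 SE (adjusted p = 0.00547). All its probe sets are of the kind marked _s_at or _x_at, which may match related transcripts. COX7A2, the widely expressed isoform, read -0.10 and 0.02 in ES, -0.09 and -0.33 in IVDS2, -0.08 and -0.36 in IVDS2-P, 0.24 and 0.43 in IVDS2-C, and 0.70 and 0.64 in IVDS3. IVDS3 was highest and IVDS2-C next, without overlap, and the rise from ES to IVDS3 was 0.71 ± 0.14 SE (adjusted p = 0.002637). COX4I2, the isoform of subunit IV known from lung, rose by 0.47 ± 0.13 SE (adjusted p = 0.0125), or adjusted p = 0.08738 without IVDS3 replicate 2. The muscle isoform COX6A2 differed by -0.045 ± 0.115 SE (adjusted p = 0.767), NDUFA4 by -0.26 ± 0.12 SE (adjusted p = 0.0972) and its relative NDUFA4L2 by -0.19 ± 0.13 SE (adjusted p = 0.236). COX5A differed by 0.15 ± 0.11 SE (adjusted p = 0.287), and its probe sets were called in opposite directions.

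The 7 assembly factors of complex IV held 3 that fell and 2 that rose. COX17, a copper chaperone, fell by 0.83 ± 0.14 SE (adjusted p = 0.00132), COX20, a chaperone of the mitochondrially made subunit II, by 0.80 ± 0.15 SE, and COX15, an enzyme of heme A synthesis, by 0.72 ± 0.10 SE. One of the 2 COX17 probe sets carried its fall, at -1.61 against -0.05 for the other. COX18, which inserts subunit II into the membrane, rose by 0.42 ± 0.12 SE, and COX19, of the copper relay, by 0.59 ± 0.16 SE; without IVDS3 replicate 1 or without ES replicate 2 neither was called, and without IVDS3 replicate 2 only 1 was. In complex V 5 of 15 genes fell: ATP5PB of the peripheral stalk by 0.73 ± 0.14 SE, the inhibitor ATP5IF1 by 0.50 ± 0.13 SE, the ring subunit genes ATP5G1 by 0.38 ± 0.12 SE and ATP5MC2 by 0.33 ± 0.11 SE, and the stalk subunit ATP5PO by 0.32 ± 0.10 SE. ATP5G1 is an old symbol of ATP5MC1, which is also listed on its own at 0.09 ± 0.11 SE, so its identity is uncertain. ATP5PF, of the peripheral stalk, rose by 0.37 ± 0.12 SE. Fewer complex V genes were called lower without either ES or either IVDS3 array, and ATP5PF was not called without IVDS3 replicate 2. ATP5F1B, the catalytic beta subunit, differed by 0.39 ± 0.17 SE (adjusted p = 0.085).

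**Figure D3:**
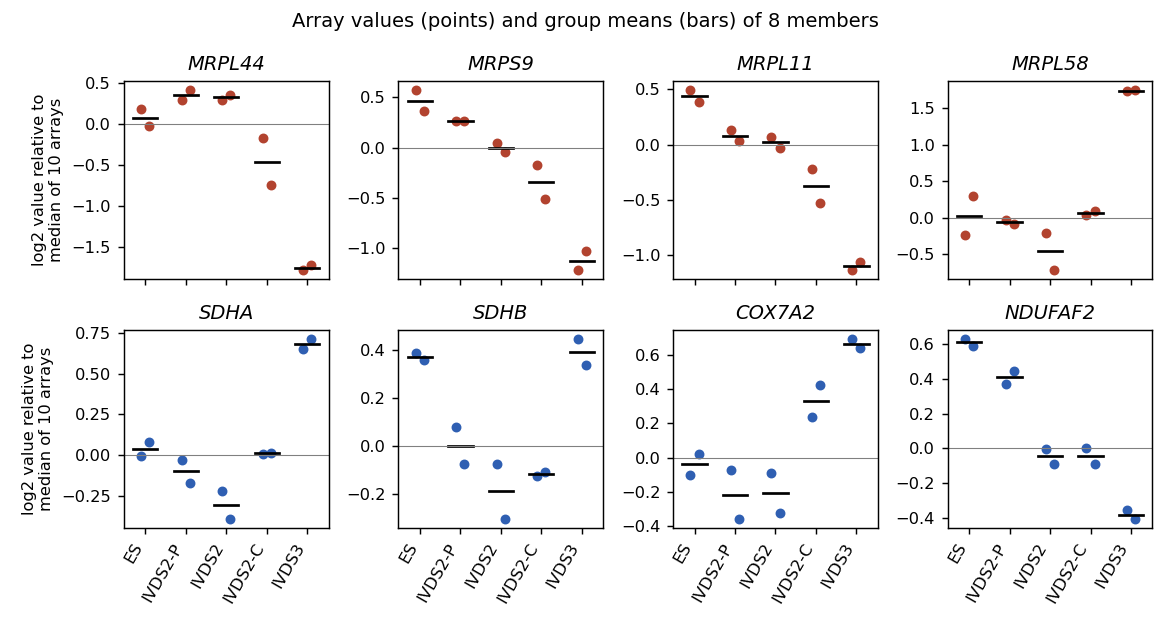
Log2 value relative to the median of 10 arrays (y axis) for 8 members on each array (points), by group (x axis); bars are group means, and the axes differ between panels. MRPL44, MRPS9 and MRPL11 are lowest in IVDS3, MRPL58, SDHA and COX7A2 are highest there, SDHB is high in both ES and IVDS3, and NDUFAF2 steps down from ES to IVDS3.

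Probe sets limit how far some of these genes can be read. Of the 137 members, 78 have 1 probe set and 59 have several, averaged here. All probe sets of SDHB, MRPL12 and MRPL47, like those of COX7A1, are marked _s_at or _x_at. Without probe sets of that kind, 69 respiratory and 57 mitoribosome genes were still measured. At IVDS3 against ES, 5 of the 59 had probe sets called in opposite directions: ATP5F1B (-0.36 and 1.15), COX5A (-0.85, 0.35 and 0.94), MRPS16 (0.46 and -0.39), NDUFS6 (-0.71, 0.48 and 0.48) and UQCRB, whose 4 probe sets ran from -0.92 to 1.45. For these genes the average joins probe sets called higher with probe sets called lower.

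Cells of the central foci were next set against ES. Of the 62 mitoribosome genes 38 fell (61.3%) and none rose (limma, 2 higher at an unadjusted p under 0.05), where 16.5% of all genes were called lower and 13.7% higher. The median difference was -0.455, against -0.107 over all genes. The large subunit had 26 of 40 lower and the small subunit 12 of 22. Fewer were called lower without either IVDS2-C array. The median difference was then -0.481 without replicate 1 and -0.412 without replicate 2. Without any array of the other groups the class count stayed within 1.5 times the full one. Without ES replicate 1 or either IVDS2-P array, 1 mitoribosome gene was called higher. MRPL16, a large-subunit protein, read 0.74 and 0.74 in ES and -0.05 and -0.46 in IVDS2-C, and fell by 0.99 ± 0.16 SE (adjusted p = 0.002229). MRPS2 fell by 0.95 ± 0.13 SE (adjusted p = 0.0008347), MRPS27 by 0.94 ± 0.14 SE (adjusted p = 0.001435) and MRPS30 by 0.90 ± 0.13 SE (adjusted p = 0.001238). MRPL11, MRPL12 and MRPS34 fell by 0.81, 0.78 and 0.86, each ± 0.12 or 0.13 SE. Apart from MRPS12, which fell by 0.49 ± 0.12 SE and was not called without either IVDS2-C array or in the fit of the 4 arrays alone, the mitoribosome genes named here kept their call under every alternative.

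Respiratory chain genes of the central foci were lower in 14 cases (18.7%) and higher in 2 (2.67%), beside 16.5% and 13.7% of all genes. Fewer were called lower without either IVDS2-C array, and more were called higher without ES replicate 1. The median difference was -0.194 without IVDS2-C replicate 1 and -0.158 without IVDS2-C replicate 2, against -0.166 with all arrays. Complex I accounted for 6 of the lower genes, none of them called without IVDS2-C replicate 2. NDUFAF2 fell by 0.66 ± 0.10 SE (adjusted p = 0.001734) and was called throughout. SDHB fell by 0.49 ± 0.12 SE (adjusted p = 0.01387) and SDHC by 0.43 ± 0.13 SE (adjusted p = 0.03371), while SDHA differed by -0.03 ± 0.11 SE (adjusted p = 0.8694); both falls were lost without IVDS2-C replicate 2, that of SDHB also without replicate 1 and that of SDHC without ES replicate 1 or either IVDS3 array. NDUFV3, an accessory subunit of complex I, fell by 0.60 ± 0.15 SE and COX20 by 0.61 ± 0.15 SE, and neither was called without either IVDS2-C array, nor NDUFV3 without ES replicate 2. NDUFAF6, at -0.80 ± 0.26 SE (adjusted p = 0.04828), lost its call under 11 of 15 alternatives, among them centred arrays and leaving out ES replicate 1 or any IVDS2-C, IVDS2-P or IVDS3 array. COX7A1 rose by 0.78 ± 0.15 SE (adjusted p = 0.004699). ATP5F1E, the epsilon subunit of complex V, read -0.39 and -0.32 in ES and 0.50 and 0.29 in IVDS2-C, and rose by 0.75 ± 0.15 SE (adjusted p = 0.006434). Only 1 of its 2 probe sets moved, by 1.46 against 0.04.

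The whole stage 2 culture differed less from ES. Of the mitoribosome genes 14 fell (22.6%) and none rose (limma, 1 higher at an unadjusted p under 0.05), beside 6.23% of all genes lower and 6.5% higher, with a median of -0.27 against -0.042. Fewer were called without either IVDS2 array, while the median was -0.245 without replicate 1 and -0.283 without replicate 2. MRPS34 read 0.64 and 0.78 in ES, 0.08 and -0.145 in IVDS2, 0.16 and 0.065 in IVDS2-P, -0.15 and -0.15 in IVDS2-C, and -0.145 and -0.065 in IVDS3. It was high in ES only, with the other 8 arrays together below, and fell by 0.75 ± 0.12 SE in IVDS2 (adjusted p = 0.00395), a call kept under every alternative. MRPL16 fell by 0.73 ± 0.16 SE (adjusted p = 0.01968), a call lost without either ES or either IVDS2 array. MRPS24 fell by 0.71 ± 0.12 SE (adjusted p = 0.005676) and was not called without IVDS2 replicate 2. MRPL19 fell by 0.66 ± 0.11 SE (adjusted p = 0.005729) and MRPL12 by 0.50 ± 0.12 SE (adjusted p = 0.02686), the latter not called without ES replicate 1 or either IVDS2 array. Of the respiratory genes 6 fell (8%) and none rose (limma, 2 higher at an unadjusted p under 0.05), near the 6.23% of all genes. They were NDUFAF2 (-0.66 ± 0.10 SE, adjusted p = 0.00367), NDUFC1 (-0.60 ± 0.13 SE), SDHB (-0.56 ± 0.12 SE), NDUFS8 (-0.50 ± 0.12 SE), NDUFS4 (-0.40 ± 0.11 SE) and ATP5F1D (-0.43 ± 0.11 SE). Without IVDS2 replicate 2 only 1 respiratory gene was called lower and without either IVDS3 array 3 were; without ES replicate 1, 2 were called higher.

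The peripheral cells had the fewest members called against ES, with a mitoribosome median near the -0.27 of the whole stage 2 culture. Mitoribosome genes were lower in 10 cases (16.1%) and higher in none in the main fit (limma, 2 higher at an unadjusted p under 0.05). Beside them, 4.67% of all genes were lower and 6.31% higher, and the class median was -0.24 against -0.079. With arrays centred on their median, or with the replicate number as a block, 1 mitoribosome gene was called higher. MRPL47 fell by 0.62 ± 0.12 SE (adjusted p = 0.01562), MRPL28 by 0.62 ± 0.13 SE (adjusted p = 0.01801), MRPS2 by 0.61 ± 0.13 SE (adjusted p = 0.01797), MRPS34 by 0.60 ± 0.12 SE (adjusted p = 0.01368) and MRPL12 by 0.58 ± 0.12 SE (adjusted p = 0.018). All 5 are structural proteins of the mitoribosome, and none was called without IVDS2-P replicate 2. Without that array the class median was -0.266, and without IVDS2-P replicate 1 it was -0.23, with few or no genes called in either fit. Without ES replicate 2 it was -0.308, with fewer genes called. Fewer were also called lower without either IVDS2 or either IVDS3 array. Of the respiratory genes 2 were higher (2.67%), UQCRB of complex III at 0.60 ± 0.14 SE and ATP5F1E at 0.57 ± 0.15 SE, and 2 lower (2.67%), NDUFV3 at -0.56 ± 0.15 SE and ATP5F1D at -0.41 ± 0.11 SE. No respiratory gene was called without ES replicate 2, IVDS2-P replicate 2 or either IVDS3 array, 1 was without IVDS2-P replicate 1 or either IVDS2-C array and 2 were without either IVDS2 array.

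The members called lower than ES in all 4 other groups were 7 mitoribosome genes: MRPS34, MRPS24, MRPL28, MRPL52, MRPL47, MRPL12 and MRPL55, named after their values were seen. They are 11.3% of the mitoribosome genes, where 2.69% of all genes were called lower in all 4, and no respiratory gene was. At the other end, 16 of the 62 mitoribosome genes (25.8%) and 37 of the 75 respiratory genes (49.3%) were called in none of the 4, beside 44.1% of all genes. MRPL47 did not follow the order of the class, reading 0.68 and 0.39 in ES and between -0.11 and 0.12 on the other 8 arrays, IVDS3 included.

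**Figure D4:**
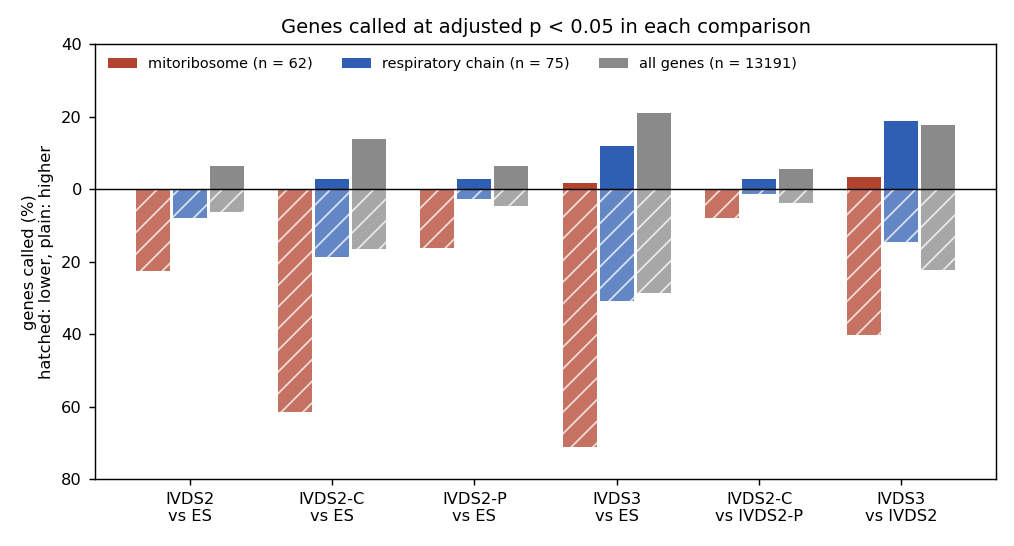
Percent of genes called at adjusted p under 0.05 (y axis; plain bars up are higher, hatched bars down are lower) in each of the 6 comparisons (x axis), for the 62 mitoribosome genes, the 75 respiratory chain genes and all 13191 genes. The lower share of the mitoribosome genes is 71% in IVDS3 and 61.3% in IVDS2-C against ES, above the 28.6% and 16.5% of all genes.

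Centre and periphery were also compared directly, the contrast behind the study's question of position within the colony. The mitoribosome genes were lower in the centre in 5 cases (8.06%) and higher in none (limma, 1 higher at an unadjusted p under 0.05), beside 3.95% of all genes lower and 5.64% higher, and their median was -0.20 against -0.034. The 5 were MRPL44 (-0.81 ± 0.17 SE, adjusted p = 0.02318), MRPS27 (-0.61 ± 0.14 SE, adjusted p = 0.02853), MRPS9 (-0.605 ± 0.142 SE, adjusted p = 0.03249), MRPS30 (-0.495 ± 0.13 SE, adjusted p = 0.0463) and MRPS24 (-0.45 ± 0.12 SE). None was called without IVDS2-C replicate 2 or without either IVDS2-P array, 1 was without either IVDS3 array, 3 without either IVDS2 array and 8 without either ES array. Of the respiratory genes COX7A1 was higher in the centre by 0.64 ± 0.15 SE (adjusted p = 0.03046) and COX7A2 by 0.55 ± 0.14 SE (adjusted p = 0.04112), 2 of 75 (2.67%), and NDUFAF2 was lower by 0.45 ± 0.10 SE (adjusted p = 0.02678). None of these 3 was called without IVDS2-C replicate 2 or either IVDS2-P array, only COX7A1 was without either IVDS3 array, 6 respiratory genes were called without either ES array, and 5 were without IVDS2-C replicate 1. No call in this comparison held under every alternative.

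Stage 3 was last set against the whole stage 2 culture. The mitoribosome genes fell in 25 cases (40.3%) and rose in 2 (3.23%), beside 22.2% of all genes lower and 17.6% higher, and 13 fell without IVDS3 replicate 1. MRPL44 had the largest fall of the class (-2.07 ± 0.17 SE, adjusted p = 3.537e-05), MRPS9 2.18-fold (-1.12 ± 0.14 SE, adjusted p = 0.0003305), MRPL11 2.17-fold (-1.12 ± 0.13 SE, adjusted p = 0.0001818) and MRPS27 1.88-fold (-0.91 ± 0.14 SE, adjusted p = 0.0009165). MRPL12 was lower by 0.62 ± 0.12 SE (adjusted p = 0.003119). MRPS34, already low at stage 2, differed by -0.07 ± 0.12 SE (adjusted p = 0.6675). MRPL58 rose 4.58-fold (2.20 ± 0.20 SE, adjusted p = 5.16e-05). The other rise, of the small-subunit gene MRPS33 at 0.36 ± 0.11 SE (adjusted p = 0.02572), was lost without any one of the 4 arrays compared.

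The respiratory genes went both ways between these stages, 14 higher (18.7%) and 11 lower (14.7%), beside 17.6% and 22.2% of all genes. The higher count was 7 without IVDS2 replicate 2 and 8 without IVDS3 replicate 2, and the lower count 7 without either IVDS2 array and 4 without IVDS3 replicate 1. SDHA rose 1.98-fold (0.99 ± 0.11 SE, adjusted p = 0.0001666) and SDHB by 0.58 ± 0.12 SE (adjusted p = 0.004038), while SDHC differed by -0.22 ± 0.13 SE (adjusted p = 0.2163). SDHAF4 read -0.53 and -1.44 in IVDS2 and 0.61 and 0.90 in IVDS3, and rose by 1.74 ± 0.27 SE (adjusted p = 0.0009605). NDUFAF3 rose by 1.01 ± 0.17 SE (adjusted p = 0.0013) and COX7A2 by 0.88 ± 0.14 SE (adjusted p = 0.001146). COX4I2 rose by 0.545 ± 0.127 SE (adjusted p = 0.008246), a call lost without IVDS3 replicate 2, and ATP5F1B by 0.73 ± 0.17 SE (adjusted p = 0.008902), lost without IVDS2 replicate 2 or IVDS3 replicate 1. Among the falls, COX8A, a small subunit of complex IV, fell by 0.90 ± 0.18 SE (adjusted p = 0.004291) and ATP5PB by 0.77 ± 0.14 SE (adjusted p = 0.002326). COX8A read 0.40 and 0.85 in IVDS2, the highest of all arrays, and -0.47 and -0.09 in IVDS3. This comparison shares the IVDS3 arrays with the comparison with ES and the IVDS2 arrays with that of stage 2.

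Other genes of mitochondrial and carbon metabolism were read from lists that do not overlap the members, and their counts stand beside 28.6% of all genes lower and 21.1% higher in IVDS3. In IVDS3 against ES, the translation factors and mitochondrial tRNA synthetases that work with the mitoribosome were lower in 16 of 26 genes and higher in 1 (MRRF), with a median of -0.50. LARS2, which charges leucine tRNA, fell by 1.44 ± 0.12 SE and the release factor MTRF1L by 1.25 ± 0.14 SE. The protein import list was lower in 14 of 20 (median -0.62), or 9 without IVDS3 replicate 1, and higher in none (limma, none at an unadjusted p under 0.05), led by TIMM50 of the inner-membrane translocase at -1.38 ± 0.13 SE. Of 12 genes of mitochondrial DNA maintenance and transcription 5 fell and SSBP1 rose, and 3 fell without IVDS3 replicate 1; TFAM, which packages mitochondrial DNA, fell by 1.11 ± 0.20 SE and the helicase TWNK by 0.90 ± 0.13 SE. Among 13 regulators of mitochondrial biogenesis 6 fell, or 3 without IVDS3 replicate 1, and PPARGC1A and PRKAA1 rose, neither under every alternative. PRKAA2, a catalytic subunit of the energy sensor AMPK, fell by 2.60 ± 0.27 SE, and GABPB1, part of a factor that binds promoters of respiratory genes, by 0.99 ± 0.18 SE.

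The list of electron carriers and quinone synthesis had 12 of 25 lower and 2 higher (COQ9 and ETFB), with the methyltransferase COQ3 at -1.50 ± 0.21 SE. It also holds assembly factors that the symbol rule misses, among them BCS1L, SURF1, FOXRED1, NUBPL and TMEM70. The list of uncoupling proteins, carriers and membrane organisers had 9 of 13 lower and none higher (limma, 2 higher at an unadjusted p under 0.05), with UCP2 at -1.27 ± 0.12 SE and the cristae protein CHCHD3 at -1.18 ± 0.14 SE. The tricarboxylic acid cycle had 5 of 11 lower and 2 higher, or 3 lower without IVDS3 replicate 1: citrate synthase (CS) fell by 1.32 ± 0.20 SE and IDH3B by 0.96 ± 0.13 SE, while SUCLG1 rose by 0.73 ± 0.10 SE and IDH3G by 0.28 ± 0.10 SE. The glycolysis and lactate list was lower as well, in 12 of 22 genes with a median of -0.60. Beside glycolytic enzymes it holds glucose and lactate carriers and the kinases PDK1 to PDK4. HK2, the hexokinase of fast-growing cells, fell by 2.02 ± 0.22 SE and GAPDH by 1.97 ± 0.12 SE. The lactate carrier SLC16A1 stood at -2.14 ± 0.20 SE. PDK4, a kinase that shuts pyruvate out of the cycle, rose by 2.78 ± 0.24 SE and was the only gene of that list to rise.

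In IVDS2-C against ES the same lists were lower in 10 of 26 translation genes and 9 of 20 import genes. Also lower were 6 of 12 DNA and transcription genes, 3 of 13 regulators and 8 of 25 genes of the electron carrier and assembly list. So were 5 of 13 uncoupling and carrier genes, 5 of 11 cycle genes and 9 of 22 genes of the glycolysis and lactate list. All stand beside 16.5% of all genes. The shares ran from 23.1% of the regulators to 50% of the DNA and transcription genes. Without IVDS2-C replicate 2 these became 4, 5, 2, 2, 3, 3, 3 and 6. The DNA and transcription count also fell to 3 without ES replicate 1 or any IVDS2, IVDS2-P or IVDS3 array. Called higher in the full fit were 1 translation gene, 1 regulator, 1 cycle gene and 2 genes of the glycolysis and lactate list. The other lists had none called higher, and the share of all genes was 13.7%. PDK4 was 2.60 ± 0.24 SE higher in the centre than in ES, near its IVDS3 difference.

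**Figure D5:**
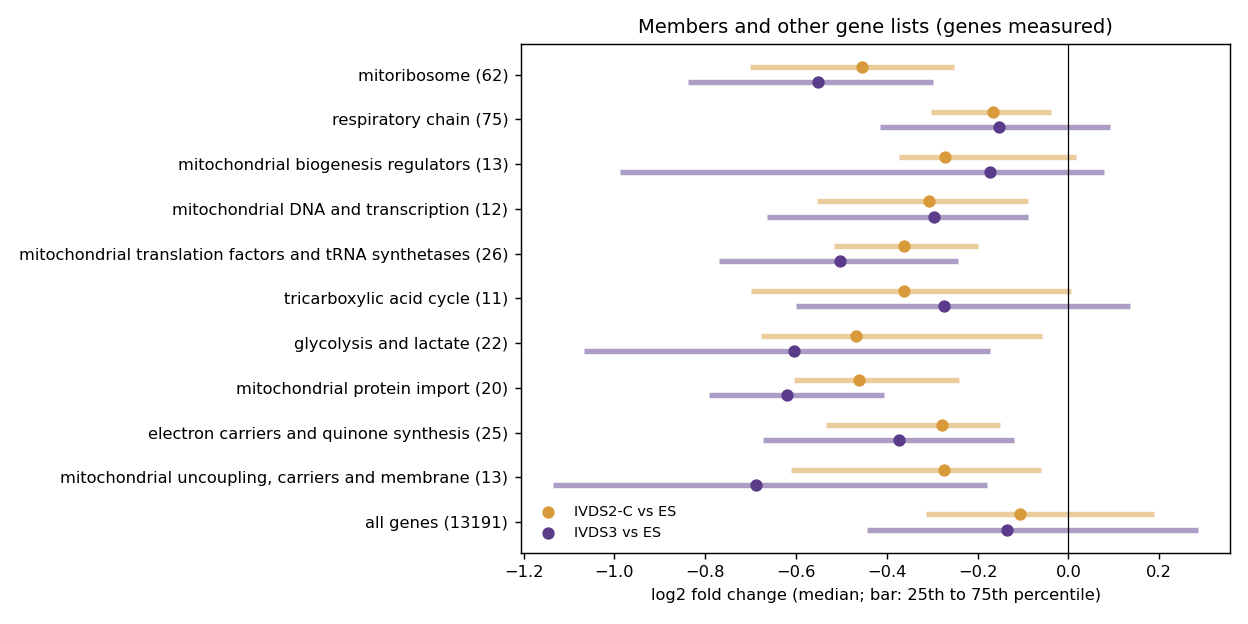
Log2 fold change against ES (x axis) for the members and for 8 other lists (y axis, with the number of genes measured), in IVDS2-C and IVDS3; points are medians over genes and bars run from the 25th to the 75th percentile over genes, not an error. The mitoribosome medians of -0.455 and -0.551 lie near those of glycolysis and lactate (-0.468 and -0.604) and protein import (-0.461 and -0.62). The respiratory chain medians of -0.166 and -0.152 lie near the -0.107 and -0.135 of all genes.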

How the data were processed

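Total RNA was isolated with TRI Reagent, treated with DNase I and hybridised as biotinylated cRNA, per the labels' protocols. The deposited table holds log2 values made with RMA, per the submitters' processing notes, which give no version. That the scale is log2 was inferred from RMA. Each probe set was centred on its median over the 10 arrays (largest absolute median 5e-07), so background, detection and absolute level are unknown. The re-analysis added no quantile normalization and no filter on dim probe sets to the deposited values. The genome build and any scan batch are not given in the sources used here. The number of arrays limits the precision.

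Of 44294 probe sets, 84 controls were left out. A gene is the mean of the probe sets that name it alone (13191 genes; 217 probe sets for the members, and 13 naming a member with another gene were left out). Symbols come from the platform annotation, and 136 of 137 members matched RefSeq (T2T-MMU8v2.0) by gene number. limma 3.58.1 in R 4.3.3 was fitted to all 10 arrays with 1 term per group (residual df 5, prior df 3.94, prior SD 0.142), tested on simulated data. Named genes are, per comparison and class, up to 4 largest called rises and falls without overlap between the groups' arrays, fixed landmark subunits, and up to 4 called genes per other list. Alternatives were array centring, 4-array fits, a replicate block, leaving out each array, the most variable probe set, no _s_at or _x_at probe sets, and a 1.5-fold minimum. The members, lists and rule were chosen with earlier results of these data known.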

Additional observations from a re-analysis of the deposited data

How the results depend on the processing

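Counts of called members are given as respiratory chain, then mitoribosome. No called gene that is named turned its direction under any alternative. With only the 4 arrays compared in the fit, the calls were 1 and 3 in IVDS2, 4 and 18 in IVDS2-C, 0 and 0 in IVDS2-P (limma, 6 and 22 at an unadjusted p under 0.05) against ES, and 0 and 0 between centre and periphery (13 and 19 unadjusted). With a fold of at least 1.5 also required, they were 2 and 5 in IVDS2, 6 and 19 in IVDS2-C, 1 and 4 in IVDS2-P, 1 and 3 between centre and periphery, 10 and 16 for IVDS3 against IVDS2, and 17 respiratory genes for IVDS3 against ES. With arrays centred on their median 3 mitoribosome genes were called between centre and periphery, and without _s_at or _x_at probe sets 6 were in IVDS2-P. Centring moved the median of all genes by less than 0.1, from -0.135 to -0.073 in IVDS3 and from -0.107 to -0.066 in IVDS2-C. Leaving out single arrays gave 1 to 8 and 2 to 14 in IVDS2, 3 to 16 and 19 to 39 in IVDS2-C, 0 to 4 and 0 to 12 in IVDS2-P, 20 to 32 and 35 to 47 in IVDS3, 0 to 6 and 0 to 8 between centre and periphery, and 14 to 30 and 14 to 32 for IVDS3 against IVDS2. Where such a fit left a group with 1 array, that array was assumed to vary like the other groups.

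The labels do not say that the replicate numbers pair the arrays. Over 10 pairs of groups, the correlation of same-numbered deviations ran from -0.21 to 0.28, with 5 over 0.1 and 3 below 0. Those below 0 all involved ES, while every pair of differentiated groups was positive, from 0.04 to 0.28. Whether the differentiated groups share a replicate structure was not tested, and the main fit did not pair the arrays. With the replicate number as a block, 6 and 15 members were called in IVDS2, 16 and 35 in IVDS2-C, 3 and 11 in IVDS2-P, 36 and 45 in IVDS3, 4 and 5 between centre and periphery and 25 and 27 for IVDS3 against IVDS2. Of all called members, 42 of 77 in IVDS3, 21 of 54 in IVDS2-C, 2 of 20 in IVDS2, 0 of 14 in IVDS2-P, 0 of 8 between centre and periphery and 20 of 52 for IVDS3 against IVDS2 kept their call under every alternative in which they were measured, the 1.5-fold minimum included. Signal over background is unknown in these centred values, so a dim member cannot be told from a steady one.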
